A study of Mus musculus with 12 samples.

Results

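The expression response of mouse leukaemia cells to AMD3100 in culture was described in 6 of the 12 samples of the series. AMD3100 is a small molecule that blocks CXCR4, the receptor for the chemokine CXCL12. The genes described were all those whose FPKM averaged 1 or more across the 6 ex vivo samples, 10245 of 23174 entries in the table. FPKM count the fragments of a gene, divided by transcript length and by the size of the library. No measured difference between the groups entered this filter, but the gene lists below were chosen with earlier results of these data known.

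The leukaemia was T-ALL, T cell acute lymphoblastic leukaemia, a cancer of immature T cells. All samples came from C57BL/6 mice and carried the genotype Notch1-deltaE+, an activated Notch1. The 3 AMD3100 and 3 vehicle samples, numbered 1 to 3 in each group, were primary leukaemia cells isolated from spleen. Their feeder layer was OP9, a stromal line from mouse bone marrow that makes CXCL12, and they grew in medium with 10% serum and 5 ng/ml IL-7, with OP9 division stopped by mitomycin C. The sources used here give neither the dose and duration of AMD3100 nor the age of the animals. The other 6 samples were primary tumours, 3 of them Cxcr4+/+ and 3 Cxcr4-KO, in a separate table, and are set beside the ex vivo changes only at the end. Nothing in the labels ties the samples of a group to separate animals or cultures. Each ex vivo p-value reflects the spread of the changes between same-numbered samples of these 6 libraries, part of which may be technical. Spread between the numbers does not enter it.

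CXCR4 signals through inhibitory G proteins to PI3K and Ras-MAPK, and it guides leukaemia cells to stromal cells that make CXCL12. T-ALL cells depend on Notch1, which drives Myc, nutrient uptake and cell growth. Nutrient supply is read by separate control circuits: ATF4, a transcription factor translated when amino acids are short, turns on amino acid transporters and synthetic enzymes, and SREBP factors turn on sterol and lipid synthesis when membrane sterol is low. Entry into S phase is driven by E2F factors, which activate genes of DNA replication.

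The cells carried the RNA of T cells. All 13 T cell markers were kept, and Cd3e, a chain of the T cell receptor complex, ranged from 462 to 914 FPKM with vehicle and from 721 to 1011 FPKM with AMD3100. The B cell markers Ms4a1 and Pax5 were listed at 0 in every library, as were 9 of 14 macrophage markers and 9 of 12 neutrophil markers. All 9 B cell markers found summed to 12.6 to 23.2 FPKM with vehicle and 17.7 to 29.5 FPKM with AMD3100. Pou2af1 was the highest of them, and of the 2 kept 1 was called higher. Genes of the OP9 stromal list were present at varied levels. Without Thy1, which T cells share, the list summed to 21.4 to 257 FPKM with vehicle and 38.8 to 322 FPKM with AMD3100. Dcn and Lum were listed at 0 in every library, and whether OP9 or other cells made this RNA was not tested. None of the 12 kept stromal genes was called in either direction, and without the samples numbered 3 the same list had 1 lower. In bulk RNA, fewer cells of a type and less RNA per cell cannot be told apart.

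The samples numbered 3 stood apart from the others in both groups. The first principal component, with 46.7% of the variance, placed them at 55.0 and 51.3, against -33.2 to -19.7 for the samples numbered 1 and 2. The second, with 19.7%, separated the treatments: the AMD3100 samples lay at 18.0, 22.9 and 30.3 and the vehicle samples at -29.2, -12.9 and -29.2. Single genes set the samples numbered 3 apart as well. The co-receptor gene Cd8a stood at 233 and 163 FPKM there and at 4.85 to 21.0 FPKM in the other 4 samples, and the gut-homing receptor gene Ccr9 at 242 and 419 FPKM against 0.811 to 1.43 FPKM. Id3, an inhibitor of E proteins, stood at 10.1 and 6.76 FPKM against 155 to 187 FPKM. In all, 12 annotated genes were at least 8-fold higher and 40 at least 8-fold lower in both samples numbered 3 than in each of the other 4, against 1 and 1 for number 1 and 4 and 1 for number 2. List counts are therefore given with and without the samples numbered 3.

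**Figure D1:**
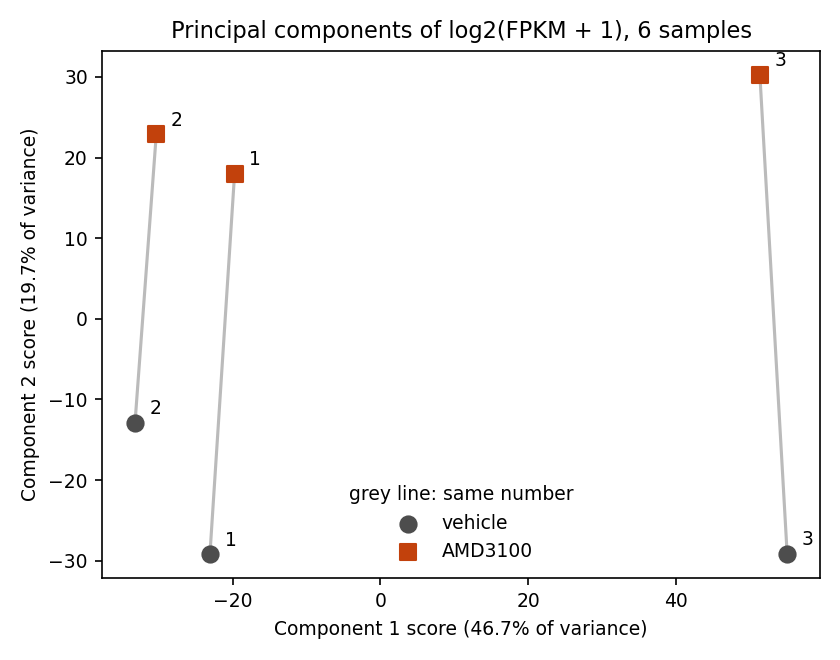
Scores of the 6 samples on the first and second principal components of log2(FPKM + 1) over 10245 genes, with vehicle as circles, AMD3100 as squares and grey lines joining samples of the same number. The samples numbered 3 lie at 51.3 and 55.0 on the horizontal axis, and every AMD3100 sample lies above every vehicle sample on the vertical axis.

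With AMD3100, genes of amino acid stress and transport, immediate early genes, costimulatory and activation receptor genes and genes of migration were called higher. Genes of cholesterol synthesis, DNA replication, histones, the proteasome and mitochondrial energy metabolism were called lower. Changes were tested with limma on log2(FPKM + 1) with the same-numbered samples paired, and a gene is called, or said to rise or fall, at a Benjamini-Hochberg adjusted p under 0.05 over all 10245 genes. Of these genes 2036 were called (19.9%), 1020 higher (9.96%) and 1016 lower (9.92%). All 2036 moved the same way in 3 of 3 pairs, which a call from a paired fit of 3 pairs largely requires. The share over all kept genes was not counted. The AMD3100 and vehicle ranges did not overlap for 1523 of them, while 2961 of all kept genes (28.9%) had non-overlapping ranges.

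Most changes were modest in size. At least 2-fold changes were seen in 95 called genes that rose and 39 that fell, and at least 1.5-fold changes in 453 and 288. The median log2 change was 0.55 for genes called higher and -0.48 for genes called lower. Pair 3 had the most changes, with 393 kept genes at least 2-fold higher and 164 at least 2-fold lower, against 153 and 117 in pair 1 and 125 and 106 in pair 2. For 1157 of the 2036 called genes the change was largest in pair 3. These calls rest on the pairing: 13 genes were called without the replicate block, and the paired fit called 9 when the samples numbered 1 were left out, 7 when number 2 was and 1207 when number 3 was. Of the 2036 genes, 1077 were called in the same direction without the samples numbered 3. That fit called 584 genes higher and 623 lower of all 10245, the background for list counts without number 3. Leaving out number 3 kept the most calls, and list counts without number 1 or 2 are not given. Without the block the cholesterol, proteasome and immediate early lists had 0 members called, and the histone list had 2 lower and 0 higher.

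**Figure D2:**
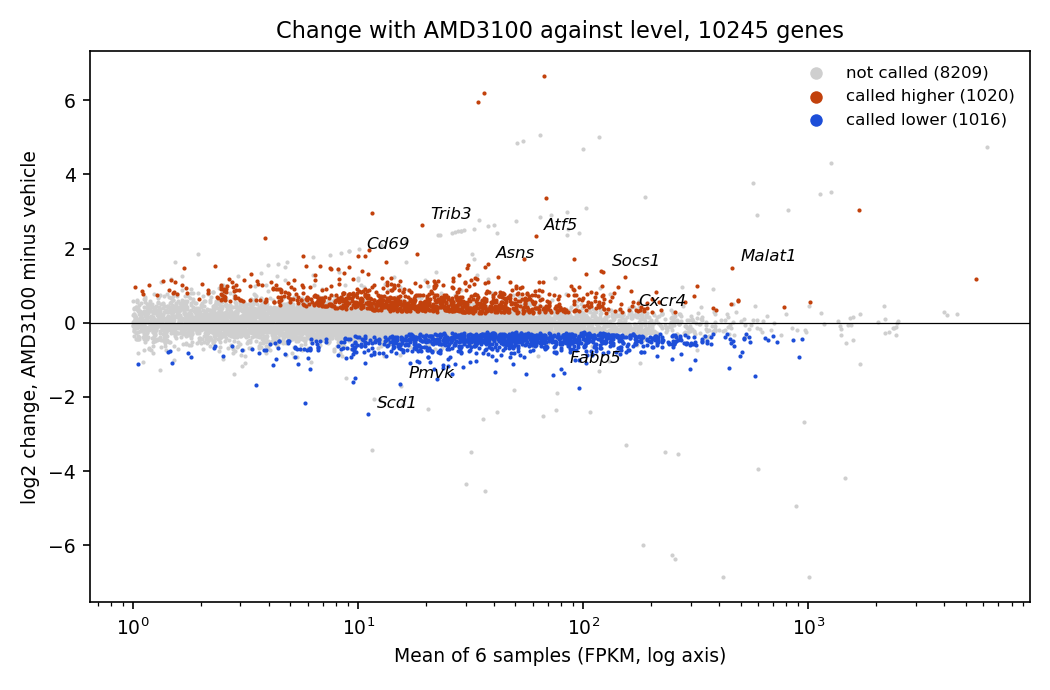
Log2 change (AMD3100 minus vehicle) against the mean FPKM of the 6 samples on a log axis, 1 point per gene, with 1020 genes called higher in orange, 1016 called lower in blue and 8209 not called in grey. Most coloured points lie within a 2-fold change of 0, and Scd1 is the lowest of the labelled genes.

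In the ATF4 branch of the stress response most called genes were higher. Of 28 kept members 14 rose and 2 fell, and the list's median log2 change was 0.46, against 0.00 over all kept genes. Without the samples numbered 3, 8 rose and 1 fell (median 0.33). Trib3 encodes a pseudokinase that is induced by ATF4 and restrains it. It stood at 4.52, 3.16 and 3.58 FPKM in vehicle samples 1, 2 and 3 and at 28.1, 12.4 and 64.0 FPKM with AMD3100, a log2 change of 2.64 (SE 0.40, adjusted p = 0.0221). Every AMD3100 sample was above every vehicle sample, and sample 3 was highest.

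Atf5, a stress-induced transcription factor, stood at 25.7, 23.9 and 10.0 FPKM with vehicle and 110, 57.6 and 143 FPKM with AMD3100 (log2 2.33, SE 0.46, adjusted p = 0.0312). Chac1, an enzyme that degrades glutathione, rose from 1.22, 2.25 and 2.42 FPKM to 6.15, 10.2 and 12.1 FPKM (log2 1.80, SE 0.12, adjusted p = 0.0169). For both genes the groups did not overlap. Stc2, a secreted stress-induced glycoprotein, was listed at 0, 2.32 and 0.116 FPKM with vehicle and 4.29, 5.68 and 1.52 FPKM with AMD3100 (log2 1.53), and its groups overlapped. Atf4 itself rose less, from 154, 163 and 179 to 211, 188 and 263 FPKM (log2 0.40, adjusted p = 0.039), and Ddit3, the pro-death factor CHOP, from 13.1, 18.4 and 14.3 to 37.3, 26.9 and 48.3 FPKM (log2 1.22). Atf4 and Ddit3 were picked with their values known. Eif2s1, the translation initiation factor subunit whose phosphorylation switches on ATF4 translation, fell (log2 -0.61).

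Amino acid transporters shared this direction, with 7 of 24 kept members higher and none lower (median 0.29, and 6 higher without the samples numbered 3). Slc7a3, a carrier of arginine and lysine, stood at 0.771, 0.920 and 0.255 FPKM with vehicle and at 9.20, 4.93 and 7.07 FPKM with AMD3100 (log2 2.28, SE 0.25, adjusted p = 0.0192). The glycine carrier Slc6a9 reached 9.02, 9.18 and 9.12 FPKM from 2.86, 3.95 and 1.20 FPKM (log2 1.54). Slc7a5 and Slc3a2 encode the light and heavy chains of a leucine transporter. Slc7a5 rose from 109, 103 and 77.7 to 194, 169 and 200 FPKM (log2 0.96) and Slc3a2 from 99.0, 98.1 and 76.5 to 153, 139 and 171 FPKM (log2 0.76). In none of these 4 genes did the groups overlap.

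Enzymes of amino acid synthesis and one-carbon metabolism moved in both directions, with 8 of 35 higher and 7 lower (median -0.06, 3 and 4 without the samples numbered 3, and 7 and 3 once pairs were corrected for transcript length). Asns, asparagine synthetase, rose from 22.2, 24.9 and 10.0 to 67.3, 60.2 and 41.1 FPKM (log2 1.58, SE 0.14, adjusted p = 0.0191). Gpt2, a mitochondrial transaminase, rose by a log2 change of 1.05 and Cth, which makes cysteine, by 1.02 from under 1 FPKM in every vehicle sample. Pycrl, a proline synthesis enzyme, fell from 31.6, 26.7 and 27.8 to 20.1, 17.2 and 12.1 FPKM (log2 -0.79). Of 22 cytosolic tRNA synthetases 1 rose and 4 fell, and of 31 chaperones of the endoplasmic reticulum lumen 2 rose and 6 fell, led by the disulphide isomerase Pdia6 (log2 -0.62). Without the samples numbered 3 the counts higher and lower were 0 and 2 for the synthetases and 0 and 5 for the chaperones.

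Promoter sequences were read for these genes because the ATF4 and C/EBP element, TGATGNAA, can be looked for directly in them. RefSeq windows on GRCm38.p6, from 250 bases before to 50 bases after each start, were matched to 7553 of 9433 annotated kept genes, and both strands were searched. Among matched members called higher, the element was in the window of 4 of 13 genes of the ATF4 branch, 1 of 4 amino acid transporters and 2 of 7 enzymes of amino acid synthesis. It was in 3.97% of all 32851 windows of the table. By gene, it was found for 2.58% of the matched kept genes, 4.50% of those called higher and 1.97% of those called lower. The 7 stretches are shown 5′ to 3′ on the strand of the gene, with the element in capitals, to let the spacing and flanks be compared. TTGCATCA and TTACATCA are the element read on the opposite strand. The first base of the element lies at -23 from the start in Asns, -193 in Chac1, -112 in Herpud1, -33 in Jdp2, -103 in Pycr1 and -4 in Slc1a4, and at 15 in Trib3, past the start. A match describes these letters only and does not show binding. The lists were built around known roles, and their uncalled members were not counted. The list shares therefore do not tie the element to the change with AMD3100.
Asns (chr6:7693210-7693258, minus strand): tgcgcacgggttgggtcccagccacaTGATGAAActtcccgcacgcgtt
Chac1 (chr2:119351023-119351082, plus strand): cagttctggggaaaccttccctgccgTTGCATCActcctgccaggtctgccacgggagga
Herpud1 (chr8:94386291-94386350, plus strand): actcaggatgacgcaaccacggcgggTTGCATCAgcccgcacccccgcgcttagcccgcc
Jdp2 (chr12:85599357-85599415, plus strand): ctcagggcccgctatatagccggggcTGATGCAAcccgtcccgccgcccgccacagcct
Pycr1 (chr11:120643818-120643877, minus strand): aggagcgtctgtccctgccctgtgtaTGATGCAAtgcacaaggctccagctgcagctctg
Slc1a4 (chr11:20332699-20332728, minus strand): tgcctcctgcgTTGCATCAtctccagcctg
Trib3 (chr2:152344028-152344057, minus strand): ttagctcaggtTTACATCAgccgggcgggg

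Genes of cholesterol synthesis and uptake and their SREBP control moved the other way. Of 36 kept members 19 fell and 2 rose, with a median of -0.50, the lowest of all lists but the histones. Without the samples numbered 3, 18 fell and none rose (median -0.53), and with every pair corrected for the length of transcripts the counts were again 18 and 0. Pmvk, a kinase of the mevalonate pathway, fell from 29.7, 18.5 and 23.2 to 7.90, 5.08 and 7.75 FPKM (log2 -1.65, SE 0.10, adjusted p = 0.0166). Fdps, which makes farnesyl pyrophosphate, fell from 67.1, 75.7 and 34.3 to 24.2, 27.9 and 15.3 FPKM (log2 -1.32, adjusted p = 0.0169). In both genes each AMD3100 sample lay below each vehicle sample.

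Lss, which closes the sterol rings, fell from 46.7, 36.0 and 23.5 to 13.1, 13.7 and 17.0 FPKM, so its change was smallest in pair 3 (log2 -1.18). Insig1, the sterol sensor that holds SREBP in the endoplasmic reticulum and is itself an SREBP target, fell from 40.7, 42.0 and 28.8 to 16.9, 21.6 and 12.0 FPKM (log2 -1.11). The sterol exporter Abcg1, which is a target of LXR and not of SREBP, also fell, from 22.4, 25.5 and 26.1 to 7.54, 12.6 and 15.7 FPKM (log2 -1.04). The lysosomal sterol transporter Npc1 rose (log2 0.52). Abcg1 and Npc1 were picked with their values known. The sterol element TCACNCCAC was in the window of none of the 11 matched members called lower and in 1.24% of all windows, and the NF-Y box CCAAT was found for 9 of the 11, against 43.6% of matched kept genes. Windows of Fdps were not used here, and uncalled members of the list were not counted.

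In fatty acid metabolism 14 of 38 members fell and 2 rose (median -0.23, and 11 and 0 without the samples numbered 3). Scd1, the stearoyl-CoA desaturase, was the largest annotated fall above 5 FPKM: 23.2, 15.95 and 19.2 FPKM with vehicle and 1.95, 3.08 and 3.16 FPKM with AMD3100 (log2 -2.46, SE 0.21, adjusted p = 0.019). Fads2, another desaturase, fell from 201, 194 and 192 to 89.3, 109 and 164 FPKM (log2 -0.74, adjusted p = 0.0489), with the least change in pair 3. Fatty acid binding proteins followed the sample number. Fabp5 fell from 95.9, 243 and 4.19 to 41.1, 95.1 and 1.23 FPKM (log2 -1.25, SE 0.07), and Fabp4 from 105, 359 and 0.842 to 17.4, 95.8 and 0 FPKM (log2 -1.77), where 0 is the listed value. In both, samples of different number differed more than treatments did. Fabp4 is a marker of fat cells, into which OP9 cells can turn, and the part of OP9 cells in its values was not tested.

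Called genes among those that load and move the replication helicase were all lower. Of the 24 members of the licensing and helicase list 15 fell and none rose (median -0.47, and 12 lower without the samples numbered 3). Cdc6, which loads the MCM helicase on origins, fell from 22.96, 25.1 and 28.3 to 14.1, 15.2 and 15.7 FPKM (log2 -0.73, SE 0.08, adjusted p = 0.0191). Mcm7, a helicase subunit, fell from 183, 163 and 193 to 112, 125 and 103 FPKM (log2 -0.67), and Gins4, part of the moving helicase, from 75.9, 65.2 and 79.1 to 39.3, 48.1 and 41.5 FPKM (log2 -0.76). The groups were apart in all 3 genes. Of 35 genes for DNA polymerases, the sliding clamp and Okazaki fragment processing 21 fell and none rose (median -0.41, and 13 lower without the samples numbered 3). Pole3, a subunit of the leading-strand polymerase, fell from 123, 142 and 139 to 64.4, 78.7 and 74.9 FPKM (log2 -0.88). Prim2, a primase subunit, fell from 67.9, 61.1 and 64.4 to 43.0, 44.5 and 28.4 FPKM (log2 -0.75).

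The E2F letters TTTNNCGC were searched in the same windows on both strands, because these genes are textbook E2F targets. They were found for 6 of 10 matched licensing genes called lower and 6 of 19 matched polymerase and clamp genes called lower, against 10.8% of matched kept genes and 5.17% of all windows. They were found for 13.9% of all genes called lower and 9.92% of those called higher. These lists too were built around known roles, and their uncalled members were not counted. Their shares therefore do not tie the letters to the change with AMD3100, and a match does not show binding. One stretch each is shown for 4 licensing genes, with the match in capitals. The first base of the match lies at -138 from the start in Cdc6, -153 in Mcm5, -110 in Mcm6 and -165 in Mcm7.
Cdc6 (chr11:98907987-98908046, plus strand): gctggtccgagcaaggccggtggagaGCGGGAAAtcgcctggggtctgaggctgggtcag
Mcm5 (chr8:75109330-75109389, plus strand): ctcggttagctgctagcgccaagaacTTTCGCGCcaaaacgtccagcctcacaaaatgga
Mcm6 (chr1:128359782-128359841, minus strand): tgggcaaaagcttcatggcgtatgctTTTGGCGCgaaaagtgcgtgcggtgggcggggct
Mcm7 (chr5:138172015-138172074, minus strand): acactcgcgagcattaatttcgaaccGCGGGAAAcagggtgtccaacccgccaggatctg

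Among the lists, histone genes were lowest, with a median of -0.56 and 35 of 54 kept members lower and 2 higher (31 and 1 without the samples numbered 3, and 25 and 2 after the length correction). Hist1h2bm fell from 95.9, 106 and 118 to 40.7, 31.4 and 48.8 FPKM (log2 -1.40, SE 0.12, adjusted p = 0.019) and Hist1h3b from 65.2, 90.4 and 88.0 to 35.5, 26.4 and 28.9 FPKM (log2 -1.39). Values of single histone genes are uncertain, since their near-identical copies can share reads, and most replication-dependent histone mRNAs lack the poly-A tail on which the libraries were selected. The 2 that rose were Hist2h2be (log2 0.71) and H2afx (log2 0.58), named after their values were seen.

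Cell cycle regulators did not move as 1 group: of 29 kept genes for G1/S regulators 4 rose and 4 fell (median -0.04, and 5 and 3 without the samples numbered 3). Ccne1, cyclin E1, which pairs with CDK2 at the start of S phase, fell from 15.01, 14.7 and 22.8 to 5.91, 8.64 and 12.8 FPKM (log2 -0.90). The D cyclin gene Ccnd2 rose from 33.1, 39.3 and 27.7 to 54.1, 58.6 and 75.9 FPKM (log2 0.89), and its partner Cdk6 from 92.1, 106 and 39.8 to 147, 178 and 86.6 FPKM (log2 0.84). The 64 genes for mitosis and its G2/M entry included 11 that fell and 0 that rose (median -0.10), 2 fell without the samples numbered 3 and 7 after the length correction. Birc5, the mitotic survival protein survivin, led them (log2 -0.47). Of 61 DNA repair genes 13 fell and 2 rose, and without the samples numbered 3 the counts were 6 and 2. The repair nuclease gene Apex1 fell from 180, 159 and 125 to 107, 104 and 58.1 FPKM (log2 -0.81).

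**Figure D3:**
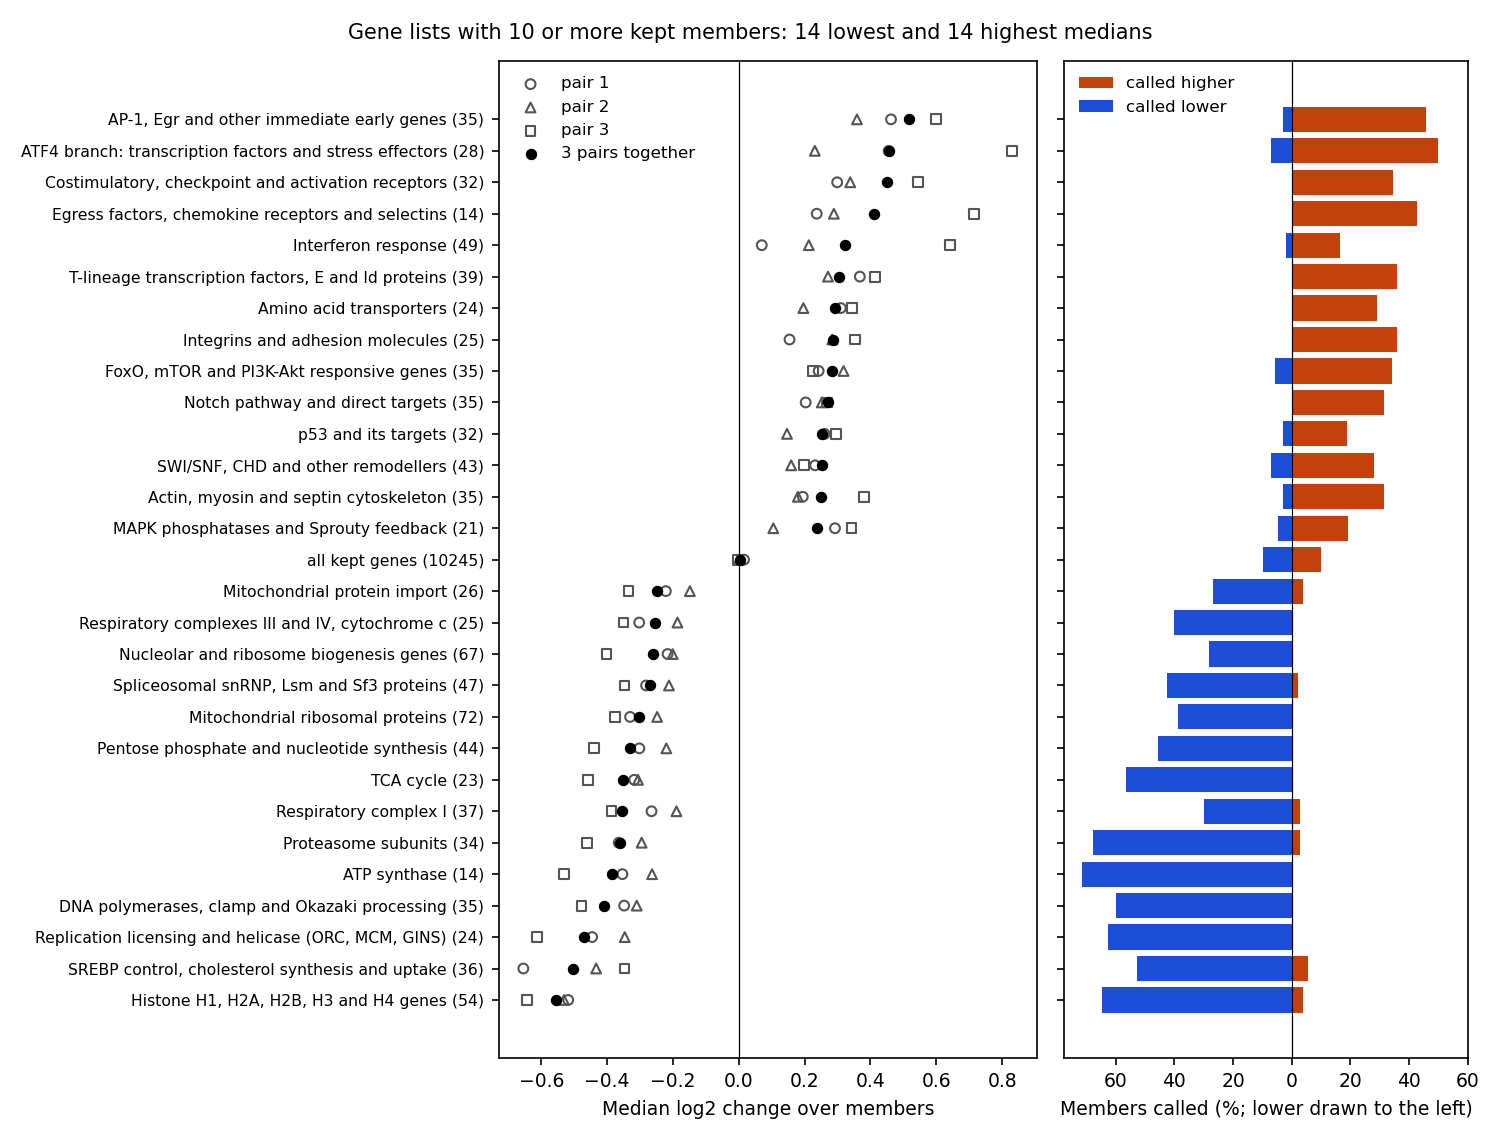
Left, the median log2 change (AMD3100 minus vehicle) over the kept members of each list in pair 1 (open circle), pair 2 (triangle), pair 3 (square) and all pairs (black), for the 14 lowest and 14 highest medians among lists with 10 or more kept members and for all kept genes. Right, the percentage of members called higher (orange) or lower (blue, to the left); the immediate early and ATF4 lists lie at the top with medians of 0.52 and 0.46 and the histone list at the bottom with -0.56.

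Energy metabolism and protein turnover held further falls. Of 34 proteasome subunits 23 fell and 1 rose (median -0.36, and 14 and 0 without the samples numbered 3). Psma2, of the 20S core, fell from 187, 170 and 208 to 101, 99.2 and 112 FPKM (log2 -0.85, SE 0.06, adjusted p = 0.0172), and Psma1 from 224, 231 and 256 to 143, 134 and 134 FPKM (log2 -0.79). Of 23 genes of the tricarboxylic acid cycle 13 fell and none rose (median -0.35), with 6 lower without the samples numbered 3 and 7 after the length correction. Idh1, the cytosolic enzyme that makes NADPH from isocitrate, fell from 28.7, 26.4 and 15.3 to 12.9, 12.5 and 6.32 FPKM (log2 -1.09), and fumarase, Fh1, from 122, 107 and 104 to 77.0, 64.6 and 50.8 FPKM (log2 -0.80). The ranges of these 4 genes did not overlap.

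ATP synthase genes fell in 10 of 14 cases and rose in none (median -0.38), respiratory complex I in 11 of 37 with 1 higher (median -0.35) and mitochondrial ribosomal proteins in 28 of 72 with none higher (median -0.30). Atpif1, the inhibitor of ATP synthase, fell from 431, 406 and 414 to 242, 214 and 176 FPKM (log2 -0.99), and Mrpl42 from 133, 135 and 150 to 72.9, 73.5 and 51.8 FPKM (log2 -1.08). These lists hold many short transcripts. After the length correction 3 ATP synthase genes were lower and 0 higher. Complex I then had 5 lower and 3 higher (median -0.16), and mitochondrial ribosomal proteins 15 lower and 1 higher. Without the samples numbered 3 the counts lower were 4, 8 and 16 in the same order, with 0 higher in each list. Of 44 genes of the pentose phosphate path and nucleotide synthesis 20 fell and none rose (median -0.33, 12 lower after the correction and 11 without the samples numbered 3), among them Ada, adenosine deaminase (20.8, 19.4 and 19.98 to 12.3, 11.7 and 10.8 FPKM, log2 -0.74). Glycolysis was mixed, with 6 of 28 lower and 2 higher (3 and 0 without the samples numbered 3): Ldha, lactate dehydrogenase, fell (log2 -0.80) and Hk2, a hexokinase, rose from 10.2, 12.3 and 7.76 to 15.7, 15.9 and 15.3 FPKM (log2 0.60).

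Cytosolic ribosomal proteins, by contrast, had 3 of 70 members higher and 3 lower and a median of -0.03, which turned to 0.11 with 8 higher and none lower after the length correction. The counts were 3 higher and 2 lower without the samples numbered 3. Of 67 nucleolar and ribosome biogenesis genes 19 fell and none rose (median -0.26). Without the samples numbered 3, 5 of the 67 fell, near the share over all genes (623 of 10245). Wdr74 led the 19 falls (58.7, 55.2 and 58.5 to 39.2, 33.1 and 34.8 FPKM, log2 -0.68). None of the 14 kept genes of Myc and the Max network was called, with or without the samples numbered 3 (median -0.08). Myc stood at 203, 214 and 213 FPKM with vehicle and at 177, 206 and 116 FPKM with AMD3100 (log2 -0.38, SE 0.17, adjusted p = 0.172), lower in each pair with overlapping groups, and its partner Max at 92.2, 78.6 and 85.7 and at 72.1, 79.6 and 79.6 FPKM.

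Immediate early genes, which receptor signals induce quickly, had a median of 0.52, above that of every other list with 10 or more kept members. Of 35 members 16 rose and 1 fell (13 and 1 without the samples numbered 3). Egr1 stood at 23.9, 33.4 and 3.78 FPKM with vehicle and at 58.5, 81.4 and 18.2 FPKM with AMD3100 (log2 1.51, SE 0.17, adjusted p = 0.0197). It rose in each pair, yet AMD3100 sample 3 lay below vehicle samples 1 and 2. Egr3 rose from 1.72, 2.02 and 0.455 to 7.90, 5.88 and 2.09 FPKM (log2 1.33) and Nr4a3, an orphan nuclear receptor induced by T cell receptor signals, from 0.746, 3.19 and 0.328 to 3.28, 4.90 and 3.49 FPKM (log2 1.18). The AP-1 subunit gene Fosl2 rose from 0.959, 2.60 and 1.20 to 3.54, 4.15 and 6.27 FPKM (log2 1.15). After the length correction Nr4a3 and Fosl2 were no longer called (adjusted p = 0.0602 and 0.061), and 14 members were higher and 1 lower.

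Costimulatory, checkpoint and activation receptor genes rose in 11 of 32 cases and fell in none (median 0.45, and 10 higher without the samples numbered 3). Cd69, an early activation marker that holds T cells in tissue by taking the S1P receptor off the surface, rose from 4.42, 3.79 and 2.86 to 18.0, 9.20 and 21.5 FPKM (log2 1.81, SE 0.28, adjusted p = 0.0222). Tnfrsf9, a costimulatory receptor, rose from 10.5, 4.1 and 0.717 to 18.3, 14.2 and 6.75 FPKM (log2 1.50), and Ctla4, an inhibitory receptor, from 20.5, 51.7 and 1.06 to 45.5, 77.7 and 6.599 FPKM (log2 1.19). Cd69 had separate groups, while those of Tnfrsf9 and Ctla4 overlapped, with the samples numbered 3 lowest in each group. Cd52 rose from 121, 93.4 and 60.3 to 269, 149 and 230 FPKM (log2 1.24).

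Cytokine receptor and SOCS genes rose in 11 of 39 cases and fell in 1 (median 0.23, and 10 and 1 without the samples numbered 3). Socs1, a feedback inhibitor of JAK kinases, stood at 57.4, 83.0 and 62.5 FPKM with vehicle and at 126, 208 and 200 FPKM with AMD3100 (log2 1.37, SE 0.12, adjusted p = 0.019). Il2rb, a receptor chain for IL-2 and IL-15, rose from 44.9, 31.1 and 35.3 to 65.7, 48.6 and 83.3 FPKM (log2 0.79). The groups did not overlap for either gene. Of 34 NF-kB genes 8 rose and 1 fell (median 0.15, and 3 and 0 without the samples numbered 3). The subunit gene Rel rose from 1.11, 3.16 and 2.63 to 4.41, 5.57 and 7.79 FPKM (log2 1.10) and the lymphotoxin gene Ltb from 27.3, 21.2 and 21.1 to 59.0, 54.6 and 37.2 FPKM (log2 1.07), while the adaptor Traf1 fell (log2 -0.91). Of 49 interferon response genes 8 rose and 1 fell, with pair medians of 0.07, 0.21 and 0.64. When the samples numbered 3 were left out, 4 of 47 rose and 1 fell, and the median went from 0.32 to 0.15.

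The receptor that AMD3100 blocks and the genes through which it signals were examined as a group of their own. Cxcr4 stood at 183, 112 and 141 FPKM with vehicle and at 183, 136 and 212 FPKM with AMD3100 (log2 0.29, SE 0.12, adjusted p = 0.154), and its groups overlapped. Cxcl12 stood at 10.4, 12.7 and 3.84 FPKM and at 15.9, 8.58 and 7.93 FPKM (log2 0.31, adjusted p = 0.449). Neither was called. Of 51 genes of the G protein, PI3K and small GTPase relay 14 rose and none fell (median 0.19, and 8 without the samples numbered 3, and 7 after the length correction).

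Wipf1, which stabilises the actin regulator WASP, rose from 23.4, 25.1 and 29.9 to 35.5, 38.2 and 50.9 FPKM (log2 0.64). Ptk2b, a kinase of chemokine receptor signalling, rose from 44.9, 34.4 and 20.1 to 59.1, 49.1 and 39.3 FPKM (log2 0.61), and Dock8, an exchange factor for Cdc42, from 35.0, 33.9 and 49.2 to 53.1, 49.8 and 68.1 FPKM (log2 0.53). Groups were apart for Wipf1 and Dock8 and overlapped for Ptk2b. Among 18 genes of receptor desensitisation 1 rose (1 also without the samples numbered 3), Arrb2, the beta-arrestin that uncouples CXCR4 (42.5, 43.4 and 20.9 to 67.6, 57.5 and 37.9 FPKM, log2 0.63).

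Genes of egress and homing rose in 6 of 14 cases and fell in none (median 0.41, and 4 higher without the samples numbered 3). Klf2 turns on the receptors with which lymphocytes leave tissue. It stood at 13.99, 17.4 and 0.114 FPKM with vehicle and 33.7, 41.5 and 0.928 FPKM with AMD3100 (log2 1.07, SE 0.12, adjusted p = 0.0197). S1pr1, which Klf2 controls, rose from 2.27, 4.94 and 1.11 to 6.77, 8.79 and 2.57 FPKM (log2 0.91), and Ccr7, the lymph node homing receptor, from 16.3, 16.2 and 1.14 to 30.1, 24.1 and 2.47 FPKM (log2 0.69). For these 3 genes vehicle sample 3 was the lowest, and the groups overlapped.

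Of 25 integrins and adhesion molecules 9 rose and none fell (median 0.29, and 6 higher without the samples numbered 3). Itgae and Itgb7 encode the chains of the integrin that binds E-cadherin. Itgae rose from 15.3, 22.2 and 9.38 to 50.1, 50.2 and 21.3 FPKM (log2 1.30) and Itgb7 from 21.1, 17.2 and 78.3 to 43.1, 32.6 and 206 FPKM (log2 1.09). The leukocyte integrin gene Itgal rose from 99.6, 96.9 and 101 to 134, 131 and 173 FPKM (log2 0.54). Only Itgal, of these 3, had groups that did not overlap. Actin and myosin genes rose in 11 of 35 cases and fell in 1 (median 0.25, and 10 and 0 without the samples numbered 3): Zyx, zyxin of focal adhesions, rose from 16.9, 17.0 and 20 to 35.0, 28.6 and 61.5 FPKM (log2 1.10), and Tmsb4x, which binds actin monomers, from 152, 145 and 305 to 277, 240 and 810 FPKM (log2 1.00).

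**Figure D4:**
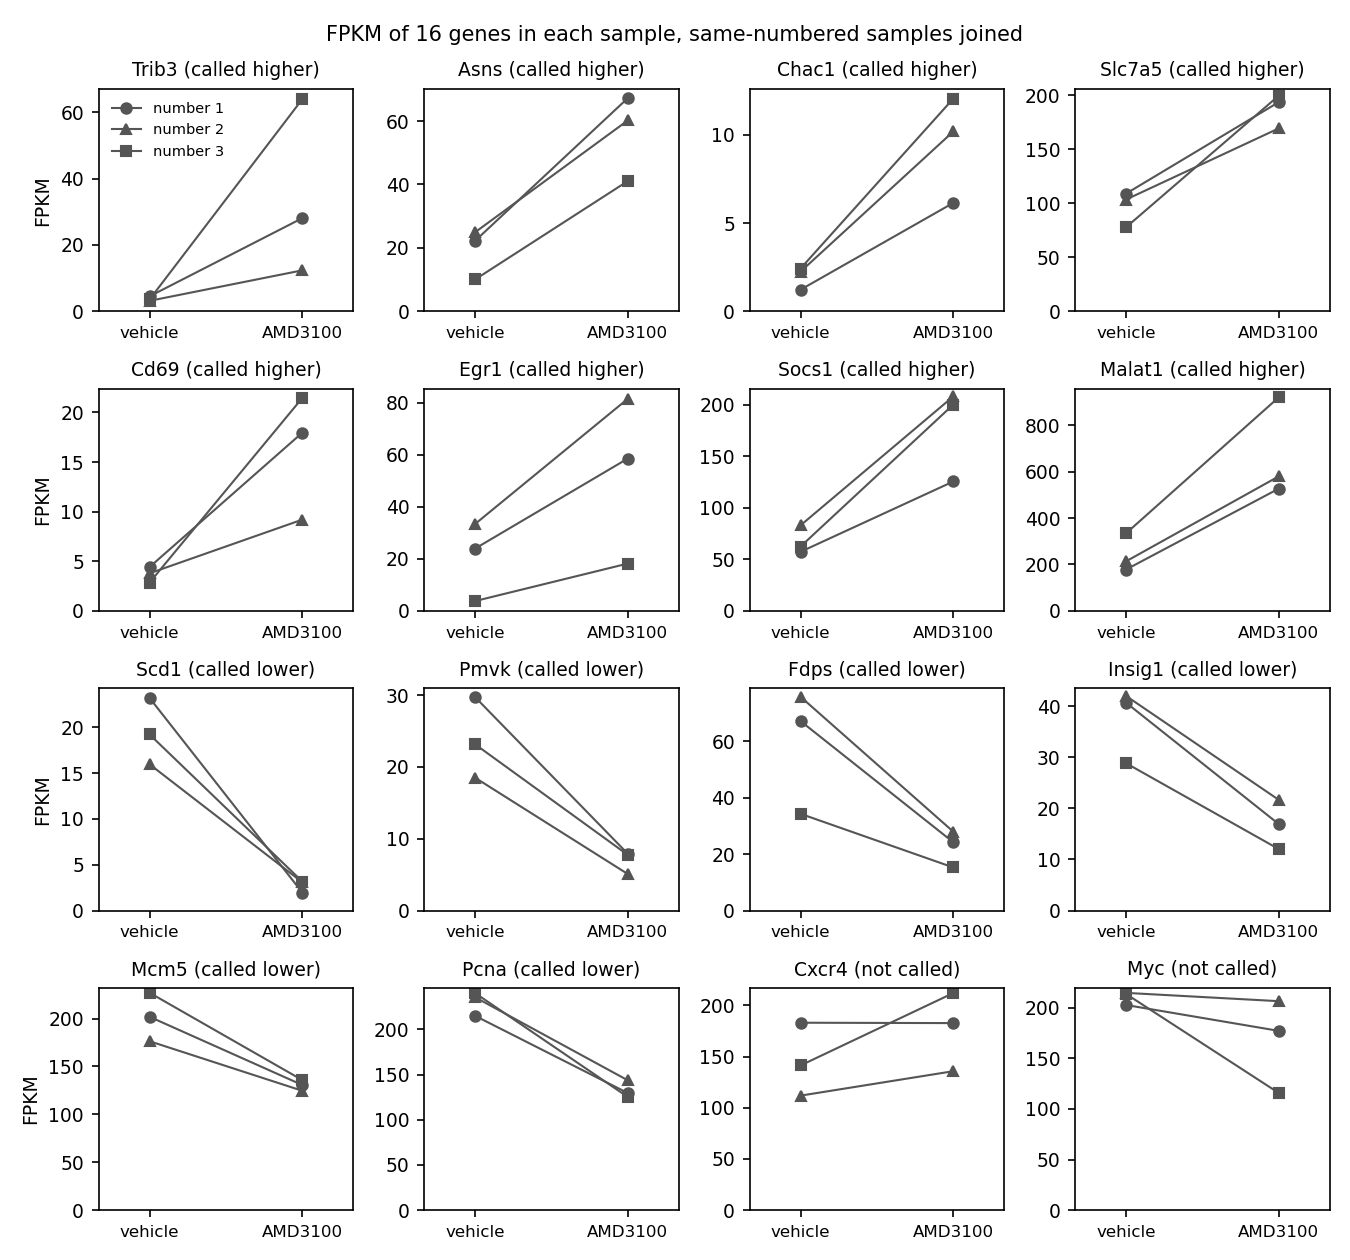
FPKM of 16 genes (linear axes from 0) in vehicle and AMD3100 samples, with lines joining samples of the same number (circle 1, triangle 2, square 3). Trib3, Cd69 and Socs1 rise along every line, Scd1, Pmvk and Pcna fall along every line, and Cxcr4 is level in pair 1 at 183 FPKM.

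Notch pathway genes rose in 11 of 35 cases and fell in none (median 0.27, and 7 higher without the samples numbered 3). Called or not, 24 of their log2 changes were above 0 and 11 below, from -1.02 to 1.19. Lfng, a glycosyltransferase that modifies Notch, rose from 9.84, 10.2 and 5.04 to 17.3, 20.9 and 20.9 FPKM (log2 1.19), and Maml2, a coactivator of Notch, from 1.41, 2.48 and 1.54 to 3.36, 4.67 and 4.30 FPKM (log2 0.87). Notch1 itself stood at 157, 172 and 163 FPKM and at 193, 250 and 174 FPKM, with groups apart, and was not called (log2 0.31, SE 0.10, adjusted p = 0.0907). After the length correction its log2 change was 0.03.

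T-lineage transcription factors rose in 14 of 39 cases and fell in none (median 0.31, and 14 higher without the samples numbered 3). Runx3, which sets the cytotoxic fate, rose from 5.25, 3.04 and 7.23 to 14.4, 9.06 and 23.5 FPKM (log2 1.40, SE 0.11, adjusted p = 0.0172). Bcl11b, needed for commitment to the T lineage, rose from 43.3, 64.6 and 66.3 to 81.6, 115 and 156 FPKM (log2 0.98), and Foxo1, which Akt holds out of the nucleus, from 12.1, 26.8 and 8.01 to 23.3, 42.0 and 15.5 FPKM (log2 0.80). Groups were apart for Runx3 and Bcl11b. Among 40 genes of the T cell receptor and its kinases 9 rose and 2 fell (7 and 1 without the samples numbered 3). Cbl, a ubiquitin ligase that ends receptor signals, rose from 50.3, 62.4 and 75.6 to 103, 111 and 140 FPKM (log2 0.91), and the receptor chain Cd3g fell (log2 -0.46, named after its value was seen).

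Genes of the cytotoxic programme rose in 3 of 13 cases, and in 2 without the samples numbered 3. Nkg7 rose from 28.3, 41.1 and 42.3 to 71.0, 98.4 and 264 FPKM (log2 1.72), and Gzmb, granzyme B, from 0.574, 6.96 and 6.22 to 1.84, 20.5 and 43.4 FPKM (log2 1.63). Nkg7 is also in the NK cell marker list, of which Ncr1 and Klre1 were listed at 0 in every library. The list summed to 1284 to 2897 FPKM with vehicle and 1523 to 3647 FPKM with AMD3100, with Gzma its highest member.

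FoxO and PI3K-Akt responsive genes rose in 12 of 35 cases and fell in 2 (median 0.28, and 11 and 1 without the samples numbered 3). Fam102a rose from 3.54, 7.53 and 2.38 to 14.2, 20.8 and 15.7 FPKM (log2 1.80, SE 0.19, adjusted p = 0.0193). Txnip, which lowers glucose uptake and is itself a FoxO target in some cells, fell instead, from 32.8, 21.2 and 47.8 to 8.69, 10.5 and 13.1 FPKM (log2 -1.51). Both genes had groups apart. Cell death genes were mixed, with 4 of 30 Bcl2 family and caspase genes higher and 3 lower (4 and 2 without the samples numbered 3). Bcl2l11, the death activator Bim, rose from 10.6, 13.1 and 17.6 to 19.8, 23.2 and 46.5 FPKM (log2 0.99) and Bbc3, Puma, from 12.7, 9.17 and 11.7 to 17.4, 14.5 and 27.0 FPKM (log2 0.72), while Bid fell (log2 -0.82).

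Chromatin regulators made up a further set of rises. Histone methyltransferases and demethylases rose in 19 of 52 cases and fell in 3 (median 0.19), remodellers in 12 of 43 with 3 lower (median 0.25), and acetyltransferases, corepressors and Mediator in 21 of 64 with 5 lower (median 0.12). Without the samples numbered 3 the counts higher and lower were 14 and 2, 3 and 0, and 11 and 2. Kdm6b, which removes the repressive H3K27 methyl mark, had the second smallest p of the annotated genes: it rose from 13.1, 19.1 and 14.7 to 38.3, 51.4 and 46.3 FPKM (log2 1.49, SE 0.08, adjusted p = 0.0155). Tet3, a DNA demethylase, rose from 12.9, 17.0 and 16.5 to 28.5, 31.1 and 37.6 FPKM (log2 1.02), and Mll2, an H3K4 methyltransferase, from 18.5, 23.5 and 21.1 to 41.7, 47.0 and 44.2 FPKM (log2 1.05). All 3 had separate groups.

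Many chromatin genes have long transcripts. After the length correction the counts higher were 9, 4 and 7 for the same 3 lists and the counts lower 3, 0 and 2. The medians were then 0.08, -0.00 and 0.04. Kdm6b and Tet3 remained called (log2 1.30 and 0.72). Mll2 had no length under that symbol and did not enter the corrected fit.

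Transcript length moved with treatment across the whole table. Among the 2520 genes with the shortest transcripts (up to 2145 bases) 119 were called higher and 488 lower, with a median log2 change of -0.15. Among the 2520 with the longest (4726 bases or more) 510 were higher and 58 lower, with a median of 0.16. Level moved too: among the 2561 genes with the highest FPKM 277 were higher and 569 lower, and among the 2562 with the lowest 132 and 50. The nuclear RNA Malat1, with the smallest p of the annotated genes, rose from 178, 214 and 334 to 527, 580 and 920 FPKM (log2 1.48, SE 0.07, adjusted p = 0.0138). Correcting each pair for length left 1343 calls, 639 higher and 704 lower. The part of RNA quality or library preparation in these differences was not tested.

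**Figure D5:**
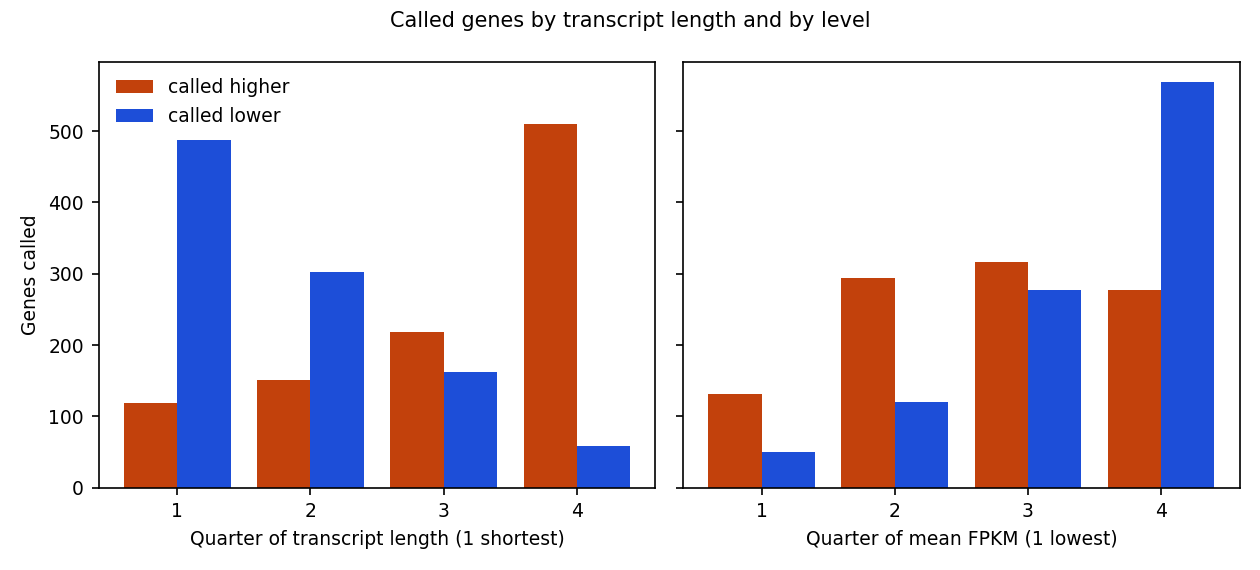
Number of genes called higher (orange) and lower (blue) in 4 equal bins of transcript length (left) and of mean FPKM (right), both axes from 0. Calls go from 119 higher and 488 lower among the shortest transcripts to 510 higher and 58 lower among the longest.

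Genetic loss of the receptor gave few calls to set beside these. Cxcr4 itself had a log2 change of -2.49 in knockout tumours (adjusted p = 0.986), and was not called. Between Cxcr4-KO and Cxcr4+/+ tumours limma called 4 of 10741 genes (0.0372%), and 460 had an unadjusted p under 0.05. Of the 2036 genes called with AMD3100, 1998 were measured in the tumours. Of these 1 was called there, Xist, the RNA of the inactive X chromosome, and 118 had an unadjusted p under 0.05. Xist moved in opposite directions, with a log2 change of 1.33 with AMD3100 and -5.43 in knockout tumours. Several list medians had the same sign in the tumours, such as histones (-0.52), polymerases and clamp (-0.43), proteasome (-0.36) and costimulatory and activation receptors (0.76). Others had the opposite sign, such as coreceptors and recombination genes (-0.92, against 0.22 ex vivo) and p53 targets (-0.13, against 0.25). No member of these lists was called in the tumours. The cholesterol list had a median of -0.07 there and the ATF4 branch one of -0.19, opposite in sign to its ex vivo median, against -0.03 over all tumour genes. Pmvk had a log2 change of -0.62 and Scd1 of 0.13 in the tumours, and neither was called.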

How the data were processed

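Poly-A RNA libraries (strand-specific, dUTP method) were read to 50 bases from one end, per the labels. The authors deposited FPKM values, and the submitters' processing notes name CASAVA, TopHat and the mm9 build. For the FPKM program, its annotation and its use of strand: not given in the sources used here. FPKM do not give read totals; the steps between the lowest values gave depths relative to vehicle 1 of 0.908 and 0.757 for vehicle 2 and 3 and 1.06, 1.25 and 1.21 for AMD3100.

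Genes with a mean of 1 FPKM or more were tested on log2(FPKM + 1), which understates changes of low genes, with limma 3.58.1 in R 4.3.3 (trend, two-sided, Benjamini-Hochberg, replicate number as block); the tumours were fitted without it. Samples with a common number deviated together (correlations of 0.467, 0.579 and 0.619 across genes), while samples of different number gave -0.473 to 0.0455. What the number marks is not in the labels. The script was tested on simulated data.

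The genes, the 62 gene lists, the 10 marker lists and the tests were chosen with earlier results of these data known. Lists are described by counts and medians, with no test. Named were Cxcr4, Cxcl12, Myc and Notch1, the 15 largest rises and falls at 5 FPKM or more, the 10 smallest p, and up to 4 called members of each list (2 highest members where none was called); not every such gene is printed. Outside that rule, and with values known, Abcg1, Atf4, Ccr9, Cd3e, Cd3g, Cd8a, Ddit3, Gzma, Hist2h2be, Id3, Npc1 and the promoters shown were chosen. Transcript lengths (longest per symbol) came from GENCODE vM21 and promoters from RefSeq, both on GRCm38; no coordinates of the files are given. Alternatives were other pseudocounts, filters, scalings (median of ratios, TMM, quantile), variance models, a length correction, no block and leaving out each number.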

Additional observations from a re-analysis of the deposited data

How the results depend on the processing

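The number of genes called with AMD3100 was 2036 (1020 higher and 1016 lower). Within 1.5 times of it lay the counts under pseudocounts of 0.1 and 0.5, filters at 0.1 and 5 FPKM, scaling by quantiles, TMM or median of ratios, a robust variance model and the table without small RNAs (1778 to 2574 genes). Without the replicate block, that is with unpaired samples, 13 were called (5 higher, 8 lower). Without a filter 1074 were called (510 and 564), without a variance trend 1089 (608 and 481), after transcript-length correction of each pair 1343 (639 higher), at an adjusted p under 0.10 3455 (1747 and 1708) and at an absolute log2 change of 1 or more 134 (95 and 39). Leaving out 1 sample number gave 7 to 1207 genes (3 to 584 higher, 2 to 623 lower), 9 without number 1, 7 without number 2 and 1207 without number 3; those fits have 1 residual degree of freedom. All 2036 genes kept their sign under the listed settings where they were tested, except 5 after the length correction. Leaving out a number could not change a sign, since every called gene moved the same way in all 3 pairs. Removing the block leaves the log2 change as it was. Of the 2036 genes, 5 stayed called in the same direction without number 1, 2 without number 2 and 13 without the block. The causes of these shifts were not tested. The 4 tumour calls became 0 without a filter and 0 to 4 when single tumours were left out, with 1 call without wild-type tumour 2 or knockout tumour 5 and 0 without knockout tumour 7 or 8.

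No called named gene changed sign under any setting run, with the same limit for leaving out a number or the block. Depth limits low genes most. Every AMD3100 library was deeper than every vehicle library (1.06 to 1.25 against 0.757 to 1, relative to vehicle 1), and vehicle 3 was the shallowest. The part of depth in the changes of low genes was not tested.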

Other observations

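Single genes outside the described groups also changed with AMD3100. Cox6a2, a muscle form of a cytochrome oxidase subunit, had the largest rise among annotated genes above 5 FPKM, from 1.22, 3.37 and 38.4 to 61.4, 22.03 and 284 FPKM in samples 1, 2 and 3 (log2 3.35, limma adjusted p = 0.0199). In the list of respiratory complexes III and IV, which does not hold Cox6a2, 10 of 25 kept members fell and none rose, with 4 lower without the samples numbered 3 and 2 lower and 1 higher after the length correction. Snrpf, a core protein of the spliceosome, rose from 38.2, 18.1 and 19.9 to 60.1, 81.0 and 109 FPKM (log2 1.71), while 20 of the 47 members of its list fell and it was the 1 member that rose. Without the samples numbered 3, 12 members fell and none rose, and after the length correction 11 fell and 1 rose. Rmrp, the RNA of RNase MRP, fell from 854, 898 and 778 to 342, 365 and 244 FPKM (log2 -1.43). Prdx4, a peroxidase of the endoplasmic reticulum, fell from 30.3, 35.8 and 34.1 to 14.3, 20.1 and 8.81 FPKM (log2 -1.23).

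Genes that differed between sample numbers could still move alike within each pair. Ly6d, an early lymphoid marker, stood at 2.00, 0.945 and 192 FPKM with vehicle and at 7.00, 3.89 and 517 FPKM with AMD3100 (log2 1.39, SE 0.08). Fbp1, fructose bisphosphatase of gluconeogenesis, fell from 45.1, 1.497 and 48.5 to 17.1, 0.181 and 18.5 FPKM (log2 -1.26), and Ifi204, an interferon-inducible gene, from 191, 171 and 7.21 to 92.4, 110 and 2.26 FPKM (log2 -1.002).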
